A study of Mus musculus with 15 samples.

Results

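Complex III, complex IV and ATP synthase are the last 3 machines of oxidative phosphorylation in the mitochondrial inner membrane. Complex III passes electrons from ubiquinol to cytochrome c, complex IV passes them from cytochrome c to oxygen, and both move protons across the membrane. ATP synthase lets the protons back through a rotating ring of c subunits, and the turning shaft drives ATP formation in its catalytic head. Each complex joins a few subunits made inside the mitochondrion to many subunits from nuclear genes, and the nuclear genes are described here in the cecum, whose epithelium burns butyrate from the microbiota.

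Cecal RNA came from male C57BL/6 mice gavaged for 30 days with either water (Vehicle, n = 8) or ampicillin, vancomycin, metronidazole, neomycin and the antifungal amphotericin B (AIMD, antibiotic-induced microbiome depletion, n = 7). The labels give an age of 20 weeks for every mouse, all groups were wild type on normal chow, and each library was made from the emptied whole cecum of 1 mouse. The question was whether the nuclear subunit genes of the 3 complexes differed between the groups. Members were the genes whose symbol starts with Uqcr (complex III), with Cox and a number from 4 to 8 (complex IV), or with Atp5 (ATP synthase), and whose FPKM, the number of fragments scaled by exon length and library depth, reached 0.5 in at least 7 of the 15 mice. Of 47 such symbols among 45808 genes listed, 39 were members, with 8 in complex III, 13 in complex IV and 18 in ATP synthase. All 39 were among the 11983 genes tested, because the same minimum chose both.

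The 8 symbols left out were the pseudogenes Atp5l-ps1, Atp5l-ps2 and Atp5l2-ps and the tissue-restricted isoforms Cox4i2, Cox6a2, Cox7b2, Cox8b and Cox8c. Just outside the minimum lay Cox4i2, which reached it in 6 mice, all Vehicle, and Cox8b, which reached it in 5 Vehicle mice and 1 AIMD mouse. Just inside lay Atp5g2, at or above it in exactly 7 mice, 2 AIMD and 5 Vehicle. Its membership thus rested mostly on the group where it was higher, so its lower call is no independent evidence of direction. One member, Atp5k-ps2, is annotated as a processed pseudogene (0 to 1.50 FPKM in AIMD and 0 to 2.59 in Vehicle mice). Atp5s and Atp5sl carry the family name but are factors outside the ATP synthase core, and Cox7a2l helps complexes join into supercomplexes.

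The libraries held from 4370767 to 18102757 reads on genes, with AIMD libraries the deeper group (8676372 at the lowest, against 4370767 in Vehicle). Vehicle replicate 8 was the shallowest library and stood apart. It was the lowest Vehicle mouse in 32 of the 39 members, and its 10 smooth muscle markers summed to 3190 FPKM, against 543 to 1430 in the other Vehicle mice. Its 6 enteric neuron and glia markers summed to 60.5 FPKM, against 3.46 to 19.4. Counts of calls are therefore given with and without this mouse. The epithelial markers fitted the label in every mouse, with Epcam, a cell adhesion protein of epithelia, between 1371 and 2440 FPKM. In whole cecum, fewer cells of a type and less RNA per cell cannot be told apart.

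Of the 39 members, 12 were lower and 6 were higher in AIMD mice, and 21 did not pass the threshold (limma, adjusted p under 0.05 over all genes tested). Among all genes tested 36.1% were called, 16.7% lower and 19.4% higher, so the members' 30.8% lower stood above the background and their 15.4% higher stood below it. The median log2 fold change of the members was -0.32, beside 0.01 over all genes tested. Without Vehicle replicate 8, 17 members were lower and 5 higher, with a median of -0.42. Of all 11983 genes tested, 2235 were then lower and 2408 higher. The groups did not overlap at all in 4 members, all higher in AIMD mice (Uqcrc2, Uqcrfs1, Atp5c1 and Atp5j), beside 8.56% of all genes tested.

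**Figure D1:**
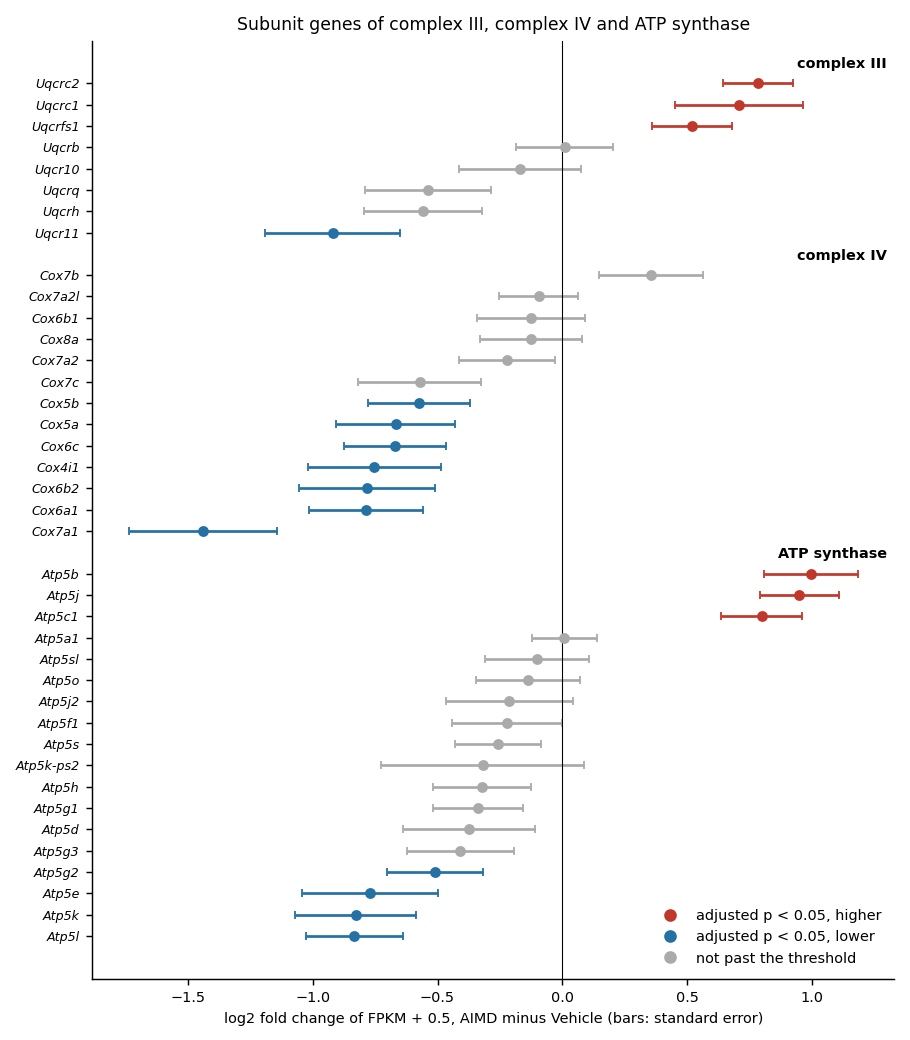
Log2 fold change (AIMD minus Vehicle, FPKM + 0.5) of each of the 39 members on the horizontal axis, grouped by complex, with bars of 1 standard error and colours for the limma call. In complex IV the called genes all lie to the left of 0, whereas complex III and ATP synthase each hold called genes on both sides.

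The 3 complexes differed in how their calls were split. Over all genes tested, 16.7% were lower and 19.4% higher. Complex IV had 7 lower (53.8%) and 0 higher of 13 (median log2 fold change -0.57). Complex III had 3 higher (37.5%) and 1 lower (12.5%) of 8 (median -0.08). ATP synthase had 3 higher (16.7%) and 4 lower (22.2%) of 18 (median -0.29), shares near those of all genes tested. Without Vehicle replicate 8 the counts became 8 lower and 0 higher in complex IV, 2 higher and 3 lower in complex III, and 3 higher and 6 lower in ATP synthase. Of all 11983 genes tested, 2235 were then lower and 2408 higher. The differences between the complexes were not tested.

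In complex III, the large subunits rose while 1 small subunit fell. Uqcrc1 and Uqcrc2 encode the core proteins on the matrix side, and Uqcrfs1 encodes the Rieske iron-sulfur protein, which carries electrons within the complex. Uqcrc2 (chr7:120635176-120659524, GRCm38) was at 234 FPKM at the lowest, 277 at the median and 336 at the highest in AIMD mice, against 99.9, 165 and 192 in Vehicle mice. Every AIMD mouse lay above every Vehicle mouse, and the log2 fold change was 0.78 ± 0.14 (SE, limma, adjusted p = 0.00049).

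Uqcrfs1 (chr13:30540308-30545362) showed the same separation, with 428, 467 and 528 FPKM in AIMD and 181, 357 and 410 in Vehicle mice. It rose by a log2 fold change of 0.52 ± 0.16 (SE, limma, adjusted p = 0.0174). Its call was lost when the number of reads was a covariate (limma, adjusted p = 0.207). Uqcrc1 was less even, with 16.4, 28.9 and 38.8 FPKM in AIMD and 9.23, 15.3 and 33.0 in Vehicle mice, and only 2 AIMD mice lay above the highest Vehicle mouse. It passed the threshold (log2 fold change 0.71 ± 0.26, SE, limma, adjusted p = 0.040), but in only 5 of the 15 fits that each left out 1 mouse, and not without Vehicle replicate 8 (adjusted p = 0.0616). Uqcrc1 also failed with the number of reads as a covariate (0.28, limma, adjusted p = 0.453). With a score of clock genes as a covariate it passed (0.76, limma, adjusted p = 0.00311).

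None of the 5 small subunits without cofactors was called higher. Uqcr11 (chr10:80402997-80406830), the shortest of them, was at 72.8, 109 and 196 FPKM in AIMD and 127, 251 and 311 in Vehicle mice. Of the AIMD mice, 4 lay below the lowest Vehicle mouse, and the gene fell with a log2 fold change of -0.92 ± 0.27 (SE, limma, adjusted p = 0.0136). The hinge protein Uqcrh, which links cytochrome c1 and cytochrome c, and the small membrane subunit Uqcrq had log2 fold changes of -0.56 and -0.54 without passing (limma, adjusted p = 0.075 and 0.104), and both passed without Vehicle replicate 8 (limma, adjusted p = 0.0237 and 0.00815). Uqcr10 was at -0.17 and Uqcrb at 0.01.

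Set side by side within each mouse, Uqcrc2 was 1.40 to 4.03 times Uqcr11 in AIMD mice (median 2.29) and 0.521 to 1.51 times in Vehicle mice (median 0.706). These genes were picked after their values were seen, so the ratio is a description with no test.

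In complex IV, the nuclear subunits surround a catalytic core that is made from mitochondrial DNA, and 7 of the 13 fell. Cox7a1, an isoform best known from heart and skeletal muscle, changed most. Cox7a1 (chr7:30184144-30186078) was at 94.7, 141 and 231 FPKM in AIMD and 141, 477 and 675 in Vehicle mice. In 7 of the 8 Vehicle mice it lay above the highest AIMD mouse, and the exception was Vehicle replicate 8. It fell with a log2 fold change of -1.44 ± 0.30 (SE, limma, adjusted p = 0.00149).

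Cox7a2, the isoform that most tissues use in the same position, had 578, 762 and 1132 FPKM in AIMD and 569, 963 and 1473 in Vehicle mice, and did not pass (log2 fold change -0.22 ± 0.19, SE, limma, adjusted p = 0.384). Within each mouse, Cox7a1 was 10.8% to 22.2% of Cox7a2 in AIMD mice (median 18.6%) and 24.7% to 68.6% in Vehicle mice (median 40.3%), and the groups did not overlap. The AIMD minus Vehicle difference of the log2 ratio was -1.22 (exact two-sided permutation test, p = 0.000311, adjusted p = 0.00187 over 6 paralog ratios). Leaving out 1 mouse at a time gave differences from -1.32 to -1.10.

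**Figure D2:**
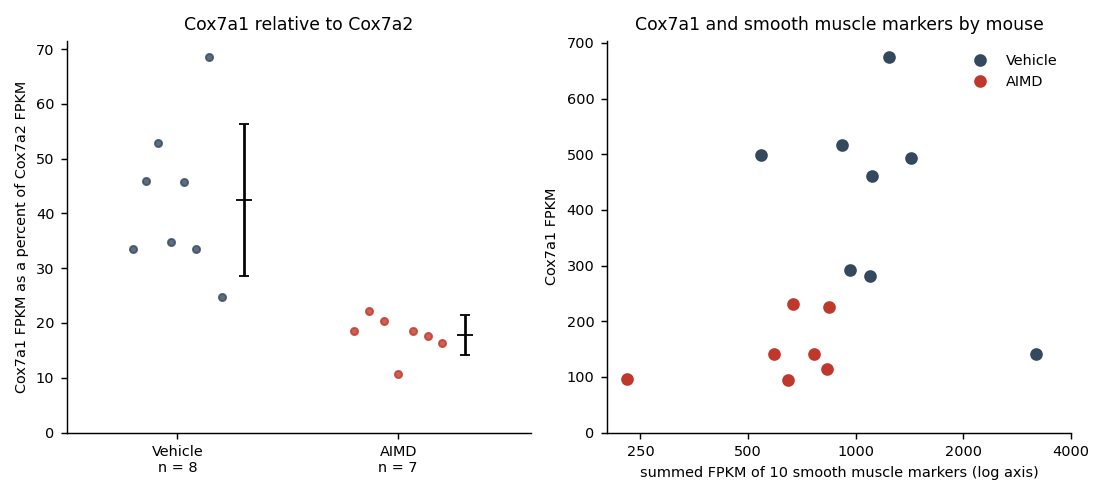
Left, Cox7a1 FPKM as a percent of Cox7a2 FPKM in each mouse, with bars for the mean and SD, and right, Cox7a1 FPKM against the summed FPKM of 10 smooth muscle markers (log axis), 1 point per mouse. The AIMD mice sit between 10.8% and 22.2% and the Vehicle mice between 24.7% and 68.6%. The mouse with the highest marker sum, 3190 FPKM, is Vehicle replicate 8, with a Cox7a1 level of 141 FPKM. The mouse with the lowest sum, 230 FPKM, is AIMD replicate 4, with 97.0 FPKM.

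Muscle markers were given beside Cox7a1 because of its known tissue. The 10 smooth muscle markers summed to 230 to 844 FPKM in AIMD and 543 to 3190 in Vehicle mice. Of the 10, 2 (Tagln and Synpo2) were lower and 0 higher, with a median log2 fold change of -0.72. Without Vehicle replicate 8 the same numbers were called, with a median of -0.47. Single mice went both ways. The Vehicle mouse with the lowest sum, 543 FPKM, had 498 FPKM of Cox7a1. The one with the highest sum, 3190 FPKM, had 141, but it is Vehicle replicate 8, which was low in most members. AIMD replicate 4, with the lowest sum of all mice (230 FPKM), had 97.0 FPKM of Cox7a1. Vehicle replicate 7, with the highest Cox7a1 (675 FPKM), had a sum of 1240 FPKM. The part of muscle content in the Cox7a1 difference was not tested. Of the 6 striated muscle markers, Ckm reached 4.04 FPKM and Acta1 1.44, and neither was called. Tnnt3, Actn2, Myh1 and Myh4 reached no more than 0.391, 0.247, 0.0214 and 0 FPKM in any mouse. Of the 5 fat markers, Cidec reached 32.8 FPKM and Adipoq 5.21. Adipoq was lower in AIMD mice (log2 fold change -1.44, limma, adjusted p = 0.0214). Cidea, Plin1 and Ucp1 reached no more than 0.309, 0.119 and 0.0730 FPKM.

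Cox6a1, a subunit near the dimer contact of complex IV that the study itself singled out from these mice, was at 671, 1011 and 1604 FPKM in AIMD and 1295, 1572 and 3492 in Vehicle mice. Of the 7 AIMD mice, 6 lay below every Vehicle mouse. Its fall (chr5:115345642-115348981; log2 fold change -0.79 ± 0.23, SE, limma, adjusted p = 0.0136) is thus no independent evidence of direction.

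Cox6c, a small transmembrane subunit, was at 147, 197 and 316 FPKM in AIMD and 195, 348 and 436 in Vehicle mice, and 5 Vehicle mice lay above the highest AIMD mouse. It fell (log2 fold change -0.67 ± 0.21, SE, limma, adjusted p = 0.0177). Cox4i1, Cox5a and Cox5b, the larger early-assembling and matrix-facing subunits, passed narrowly. Cox4i1 was at 389, 625 and 1028 FPKM in AIMD and 587, 1032 and 2114 in Vehicle mice (log2 fold change -0.75, limma, adjusted p = 0.0347).

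Cox5a had the highest FPKM of all members, at 1684, 2282 and 4195 in AIMD and 2301, 3949 and 6423 in Vehicle mice (log2 fold change -0.67, limma, adjusted p = 0.0374). Cox5b was at 53.8, 62.5 and 89.9 in AIMD and 58.5, 104 and 203 in Vehicle mice (log2 fold change -0.57, limma, adjusted p = 0.0365). The groups overlapped in each of these. After quantile normalization Cox5a no longer passed (log2 fold change -0.34, limma, adjusted p = 0.128). The call held in 6 of the 15 fits without 1 mouse for Cox4i1 and Cox5b and in 5 for Cox5a.

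Cox6b2, an isoform known from testis, rested on 0 to 17 reads in AIMD and 3 to 27 reads in Vehicle mice. It was at 0, 0.548 and 0.808 FPKM in AIMD and 0.413, 1.10 and 3.32 in Vehicle mice (log2 fold change -0.78, limma, adjusted p = 0.0337). Its ubiquitous partner Cox6b1, at 1128, 1564 and 2303 FPKM in AIMD and 975, 1593 and 2862 in Vehicle mice, did not pass (log2 fold change -0.12, limma, adjusted p = 0.680). The ratio of Cox6b2 to Cox6b1 was lower in AIMD mice by the raw test only (log2 difference -0.66, exact two-sided permutation test, p = 0.0435, adjusted p = 0.131).

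The 6 complex IV members that did not pass included Cox7b, the only one above 0 (log2 fold change 0.35), which was at 405, 412 and 509 FPKM in AIMD and 138, 359 and 489 in Vehicle mice. Cox8a was at -0.13 and Cox7c at -0.57, the latter at only 3.23 to 13.2 FPKM across all mice, with 22.1% of its 50-base transcript windows also found in transcripts of other genes. The supercomplex factor Cox7a2l was at -0.09, with 85.5, 106 and 139 FPKM in AIMD and 88.7, 116 and 190 in Vehicle mice. Its ratio to Cox7a2 did not differ beyond the spread (log2 difference 0.13, exact two-sided permutation test, p = 0.214, adjusted p = 0.428).

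In ATP synthase, subunits of the catalytic head and shaft did not move as 1 block. Atp5b encodes the catalytic beta subunit, Atp5a1 the alternating alpha subunit, and Atp5c1 the gamma subunit of the shaft that turns inside them. Atp5b (chr10:128083273-128090391) was at 268, 423 and 510 FPKM in AIMD and 131, 191 and 309 in Vehicle mice. Of the AIMD mice, 5 lay above the highest Vehicle mouse, and the log2 fold change was 1.00 ± 0.19 (SE, limma, adjusted p = 0.000754), the largest rise of any member.

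Atp5c1 (chr2:10056016-10080510) was at 252, 311 and 407 FPKM in AIMD and 104, 194 and 230 in Vehicle mice, without overlap. It rose with a log2 fold change of 0.80 ± 0.16 (SE, limma, adjusted p = 0.0013). Atp5a1, by contrast, was at 604, 709 and 899 FPKM in AIMD and 534, 730 and 893 in Vehicle mice, with almost fully overlapping groups and a log2 fold change of 0.01 ± 0.13 (SE, limma, adjusted p = 0.969). Within a mouse, Atp5b was 0.298 to 0.720 times Atp5a1 in AIMD mice (median 0.585) and 0.214 to 0.402 times in Vehicle mice (median 0.249), a description of genes picked after their values were seen. The enzyme holds the alpha and beta proteins in equal number, but these values are of RNA and not protein. They were also counted over unlike lengths, 4237 bases for Atp5b and 3135 for Atp5a1.

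The small head subunit epsilon, Atp5e, was at 122, 154 and 288 FPKM in AIMD and 136, 309 and 565 in Vehicle mice and fell (log2 fold change -0.77 ± 0.27, SE, limma, adjusted p = 0.0348). This call held in 7 of the 15 fits without 1 mouse. The delta subunit gene Atp5d was at -0.37 and did not pass (limma, adjusted p = 0.281).

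**Figure D3:**
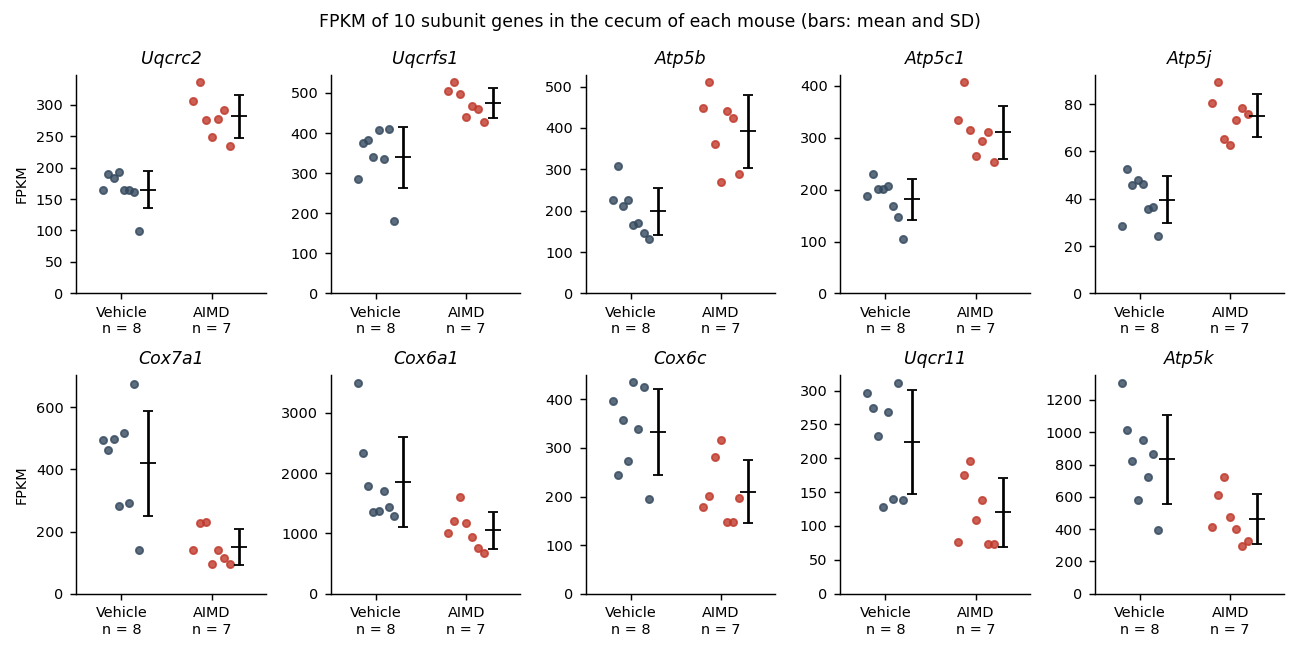
FPKM of 10 members in each mouse, 1 panel per gene, with bars for the mean and SD and every axis from 0. The 7 AIMD mice lie above all 8 Vehicle mice for Uqcrc2, Uqcrfs1, Atp5c1 and Atp5j, while the panels of the lower row overlap at least in part.

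Among the 4 stalk subunits, which hold the head still against the rotor, only Atp5j was called. Atp5j (chr16:84827866-84835625), coupling factor 6, was at 62.9, 76.0 and 89.3 FPKM in AIMD and 24.1, 41.1 and 52.6 in Vehicle mice. No AIMD mouse overlapped a Vehicle mouse, and the log2 fold change was 0.95 ± 0.16 (SE, limma, adjusted p = 0.000273), the smallest adjusted p of any member. The other stalk genes Atp5f1, Atp5h and Atp5o lay between -0.32 and -0.14 and did not pass.

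The membrane subunits e and g, which help shape the inner membrane at rows of ATP synthase dimers, fell. Atp5k (subunit e, chr5:108433244-108434448) was at 296, 415 and 722 FPKM in AIMD and 392, 842 and 1305 in Vehicle mice, where 6 of 8 lay above the highest AIMD mouse. Its log2 fold change was -0.83 ± 0.24 (SE, limma, adjusted p = 0.0135). Atp5l (subunit g) also fell, with a log2 fold change of -0.83 ± 0.19 (SE, limma, adjusted p = 0.00349), but on 4 to 22 reads per AIMD mouse and 4 to 17 per Vehicle mouse, at 0.652, 1.36 and 2.27 FPKM in AIMD and 1.52, 2.64 and 3.73 in Vehicle mice. Atp5j2 (subunit f) was at -0.21 and did not pass.

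The identical mature c subunit of the rotor comes from 3 genes, and by FPKM Atp5g3 stood far above Atp5g1 and Atp5g2. The genes were counted over unlike lengths (4912, 1675 and 2181 bases for Atp5g1, Atp5g2 and Atp5g3). Their windows shared with other genes also differed (10.2%, 38.3% and 0%). The part of this in their levels was not tested. Atp5g3 was at 670, 874 and 1597 FPKM in AIMD and 815, 1273 and 1938 in Vehicle mice (log2 fold change -0.41, limma, adjusted p = 0.147). Atp5g1 was at 0.992, 1.27 and 1.96 in AIMD and 0.977, 1.81 and 3.13 in Vehicle mice (log2 fold change -0.34, limma, adjusted p = 0.149).

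Atp5g2, at 0.215, 0.445 and 0.512 in AIMD and 0.273, 0.723 and 1.50 in Vehicle mice, passed narrowly (log2 fold change -0.51, limma, adjusted p = 0.0467). It rested on 2 to 26 reads, shared 38.3% of its windows with other genes, and held its call in 4 of the 15 fits without 1 mouse. Atp5g1 stood at 0.106% to 0.287% of Atp5g3 in all mice. None of the 3 ratios between these genes differed beyond the spread (exact two-sided permutation test, adjusted p = 0.679, 0.73 and 0.73).

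Of the 18 calls, 11 held in every fit without 1 mouse, 5 of them higher and 6 lower. The higher genes were Uqcrc2, Uqcrfs1, Atp5b, Atp5c1 and Atp5j, and the lower genes were Uqcr11, Cox6a1, Cox6c, Cox7a1, Atp5k and Atp5l. The other 7 calls each failed without at least 1 mouse. Their highest adjusted p (limma) was 0.0842 for Uqcrc1 without AIMD replicate 2, 0.0770 for Cox4i1 and for Atp5e and 0.0793 for Cox5b and 0.0944 for Atp5g2 without AIMD replicate 6, 0.0861 for Cox5a without AIMD replicate 5, and 0.0716 for Cox6b2 without AIMD replicate 4. When only genes at 1 FPKM or more in all 15 mice were tested, 9 of the 34 members left were lower and 6 higher. Of all 8342 genes in that fit, 3149 were called.

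The lower and higher members differed in coding length, which the rule did not use. The 6 higher members had longest coding lengths of 324 to 1587 bases (median 1127) and the 12 lower members 156 to 507 bases (median 311). Of the 29 members up to 600 bases, Atp5j was the only higher one. The genes outside the 3 complexes leaned the same way, but by less: among the 221 of up to 300 bases, 25.3% were lower and 14.5% higher, and among the 3043 of 1200 to 2000 bases, 14.9% were lower and 21.9% higher. Their median log2 fold changes were -0.18 and 0.06, against -0.55 and 0.75 for the 14 and 4 members in those ranges. The part of transcript length in the members' calls was not tested.

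**Figure D4:**
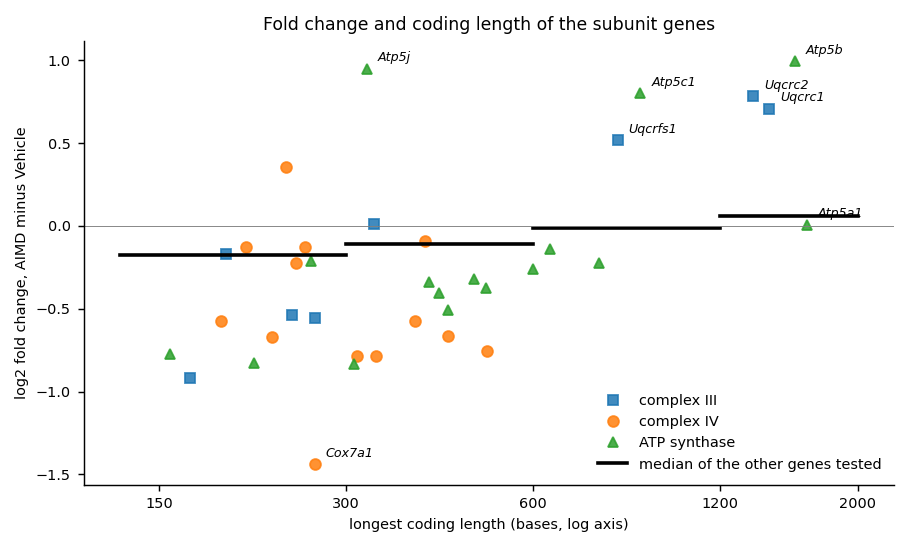
Log2 fold change against the longest coding length (log axis) of the 37 members with an annotated coding sequence, with black bars for the median of the other tested genes in each range of length. Higher members lie at 822 bases or more except Atp5j, and Atp5a1, the longest, lies at 0.01.

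Promoter sequences show whether members that moved alike share binding letters of factors known to drive nuclear subunit genes. RefSeq promoters (GRCm38.p6, 250 bases before to 50 after the start) matched 29 of the 39 members by symbol, with 32 promoters in all. The letters searched on both strands were GCATGCGC for NRF1, CCGGAAG for ETS factors such as GABP, AAGATGGC for YY1, GGGCGG for SP factors, CACGTG for the E-box and TCAAGGTCA for estrogen-related receptors. The NRF1 letters on opposite strands overlap each other when they form one palindrome. NRF1 letters stood in 18.8% of member promoters and 2.71% of all 32851 promoters, and ETS letters in 31.3% and 8.86%.

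SP letters stood in 28.1% of member promoters and 35.7% of all promoters, and YY1 letters (6.25% against 2.75%), E-boxes (9.38% against 7.15%) and receptor letters (3.13% against 0.423%) rested on 2, 3 and 1 promoters. Among the promoters of lower members 5 of 10 held NRF1 letters, and among those of higher members, which come from 5 genes, 1 of 7. The split was the same for ETS letters (5 of 10 and 1 of 7), and SP letters stood in 5 of 10 and 2 of 7. These are counts of letters with no test.

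The 250 bases before the start of 4 members are shown on the gene's strand, chosen as a lower gene of complex IV and one of ATP synthase that both hold the NRF1 palindrome, the member that fell most, and the member that rose most. Capitals mark any of the searched letters.
Cox6a1, chr5:115348959-115349208, minus strand: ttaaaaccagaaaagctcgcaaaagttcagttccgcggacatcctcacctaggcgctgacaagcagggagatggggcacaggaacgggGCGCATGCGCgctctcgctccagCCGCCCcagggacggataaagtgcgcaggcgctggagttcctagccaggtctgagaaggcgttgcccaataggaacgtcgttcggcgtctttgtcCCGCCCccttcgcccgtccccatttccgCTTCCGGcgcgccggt
Atp5k, chr5:108434400-108434649, minus strand: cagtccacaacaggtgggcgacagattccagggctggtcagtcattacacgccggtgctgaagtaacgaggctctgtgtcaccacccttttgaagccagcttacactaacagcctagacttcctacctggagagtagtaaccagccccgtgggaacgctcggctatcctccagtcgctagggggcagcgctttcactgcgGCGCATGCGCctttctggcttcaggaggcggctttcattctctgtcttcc
Cox7a1, chr7:30183921-30184170, plus strand: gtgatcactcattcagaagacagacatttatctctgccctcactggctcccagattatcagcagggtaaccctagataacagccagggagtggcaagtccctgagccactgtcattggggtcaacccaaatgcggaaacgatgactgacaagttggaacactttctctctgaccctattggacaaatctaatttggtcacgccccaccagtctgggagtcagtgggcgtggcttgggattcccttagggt
Atp5b, chr10:128083057-128083306, plus strand: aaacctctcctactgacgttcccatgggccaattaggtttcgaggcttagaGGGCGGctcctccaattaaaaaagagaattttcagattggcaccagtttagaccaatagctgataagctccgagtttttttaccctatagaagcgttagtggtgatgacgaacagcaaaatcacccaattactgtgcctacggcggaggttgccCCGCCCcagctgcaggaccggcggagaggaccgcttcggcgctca
In these windows the palindrome in Cox6a1 and in Atp5k is the same 10 letters, Cox7a1 holds none of the searched letters, and Atp5b holds SP letters on either strand.

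The assembly factors, which fit cofactors and subunits into the complexes, were called in both directions. Of 35 tested, 5 were lower (14.3%) and 4 higher (11.4%), with a median log2 fold change of -0.15. Both shares lay below those over all genes tested, 16.7% lower and 19.4% higher. Without Vehicle replicate 8 there were 11 lower and 3 higher (median -0.22). Cox17, the copper chaperone that hands copper to complex IV, was at 4.88, 7.12 and 17.8 FPKM in AIMD and 17.2, 34.7 and 51.9 in Vehicle mice and fell with a log2 fold change of -1.85 ± 0.31 (SE, limma, adjusted p = 0.000242), a lower value than that of any member. Pet100 (-1.12) and Cox14 (-1.03), small factors of complex IV assembly, and Uqcc3 (-0.54) and Uqcc1 (-0.46) of complex III also fell. The call of Uqcc3 held in only 5 of the 15 fits without 1 mouse.

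Cox15, which makes heme A for the catalytic core, was at 7.16, 7.64 and 10.1 FPKM in AIMD and 3.03, 4.34 and 5.15 in Vehicle mice, without overlap. It rose with a log2 fold change of 0.93 ± 0.12 (SE, limma, adjusted p = 4.3e-05), and Sco1 (0.65), which acts in copper delivery after Cox17, rose without overlap too. Higd1a (0.45) also rose. Coa7 (0.52) passed, but in only 5 of the 15 fits without 1 mouse, and not without Vehicle replicate 8 (limma, log2 fold change 0.40, adjusted p = 0.0648) or with the number of reads as a covariate (0.24, adjusted p = 0.416). Cox17 and Sco1 thus went opposite ways, a pair picked after their values were seen. Sco2, Cox11 and Cox19, also listed for complex IV assembly, did not pass (log2 fold change -0.23, -0.45 and -0.20, limma, adjusted p = 0.358, 0.148 and 0.350). None of the 5 tested ATP synthase assembly factors passed, with or without Vehicle replicate 8.

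Partners of the 3 complexes were called in both directions, with 2 of 9 higher and 2 lower (22.2% each). Over all genes tested, 19.4% were higher and 16.7% lower. Without Vehicle replicate 8, 1 partner was higher and 2 were lower. Cyc1, the cytochrome c1 of complex III, rose (log2 fold change 0.74, limma, adjusted p = 0.0339), though not without Vehicle replicate 8 (limma, adjusted p = 0.0556) or with the number of reads as a covariate (log2 fold change 0.30, adjusted p = 0.414). Slc25a5, the adenine nucleotide carrier of dividing cells, also rose (0.87, limma, adjusted p = 0.000185). Cycs, which carries electrons between the complexes, fell (-0.88, limma, adjusted p = 0.0181), and Atpif1, the inhibitor of ATP synthase run in reverse, fell most of these (-1.23, limma, adjusted p = 0.0103).

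Of the subunits coded by mitochondrial DNA, mt-Cytb and mt-Co1 were tested and both fell (log2 fold change -1.33 and -1.30, limma, adjusted p = 0.00532 and 0.012). Both calls were lost after quantile normalization (log2 fold change -0.34 and -0.35, limma, adjusted p = 0.243 and 0.328) and with the number of reads as a covariate (-0.84 and -0.68, limma, adjusted p = 0.0904 and 0.194). The genes mt-Co2, mt-Co3, mt-Atp6 and mt-Atp8 were listed at 0 or close to 0 and were not tested. Among 12 regulators of mitochondrial gene expression, the GABP subunits Gabpa (0.41) and Gabpb1 (0.26) were higher and 0 were lower, also without Vehicle replicate 8. With all mice, 16.7% of the regulators were called, beside 36.1% of all genes tested. Gabpb1 held its call in only 4 of the 15 fits without 1 mouse and Gabpa in 10, and both calls were lost with the number of reads as a covariate (limma, adjusted p = 0.142 and 0.0562).

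Of the complex I subunit genes, 10 of 36 were lower (27.8%) and 2 higher (5.56%), with a median log2 fold change of -0.44. Without Vehicle replicate 8, 18 were lower and 2 higher (median -0.58). The shares over all genes tested were 16.7% lower and 19.4% higher. Genes whose symbol starts with Rpl or Rps and a number had 15 of 83 lower (18.1%) and 11 higher (13.3%), with a median of -0.19. Without Vehicle replicate 8 they had 26 lower and 8 higher (median -0.29). They were taken by symbol to stand for cytosolic ribosomal proteins, and the set can hold genes of other function with such a name. Across mice the level of the members varied together with these genes. Vehicle replicate 1 had the highest member mean of all mice (7.45 on the log2 scale) and the highest mean of the Rpl and Rps symbols (4.59). Vehicle replicate 8 had the lowest of both (6.17 and 3.69). The part of this shared variation in the calls was not tested.

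The mean over complex IV members was 7.58 ± 0.30 (SD, n = 7) in AIMD and 8.08 ± 0.39 (SD, n = 8) in Vehicle mice on the log2 scale. For complex III it was 7.65 ± 0.30 and 7.67 ± 0.39, and for ATP synthase 5.55 ± 0.25 and 5.71 ± 0.35. The enteric neuron and glia markers moved with the treatment as well, with 4 of 4 tested lower and sums of 2.30 to 4.12 FPKM in AIMD and 3.46 to 60.5 in Vehicle mice. Of 12 epithelial markers 3 were higher and 1 lower, with sums of 4910 to 7620 and 4260 to 6340 FPKM. Immune markers summed to 57.8 to 232 FPKM in AIMD and 42.8 to 87.6 in Vehicle mice, with 3 of 7 tested higher and 1 lower. Fibroblast markers had 1 of 6 higher and 1 lower, endothelial markers 0 of 4 called, fat markers 1 of 2 lower (Adipoq) and striated muscle markers 0 of 2 called. Of 12 clock genes 1 was lower. Without Vehicle replicate 8, 4 epithelial markers were higher and 1 lower, 3 immune markers higher and 0 lower, 1 fibroblast marker higher and 0 lower, and 1 striated muscle marker higher, and the other counts were the same. The part of cell composition in the members' values was not tested.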

How the data were processed

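According to the methods, the authors aligned reads to GRCm38 with STAR and obtained counts with featureCounts on GENCODE genes, and the deposited table gives FPKM for 15 mice with 1 library each. How FPKM were derived is not given in the sources used here. The authors' own tests used DESeq2 with time of sacrifice as a factor. The labels do not give that time, and a score of clock genes was tried in its place. The score was -2.38 to -1.69 in AIMD replicates 1 to 3 and Vehicle replicates 1 to 4. In the other mice of both groups it was 0.0594 to 1.02. Of 45808 gene symbols, 4 repeated ones were dropped. Dividing each deposited FPKM by the value of 1 read gave a whole number (tolerance 0.01 reads) for 99.96% of 24279 genes above 0, which yielded the reads per gene and the depth. The tolerance was slightly wider for large numbers of reads. Where the annotated exon length gave no whole numbers, other lengths were searched for one that did. The percentage therefore includes fitted lengths, which are easily found for genes with few reads. Reads limit the precision of low members.

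After scaling with size factors (all close to 1.01), log2(FPKM + 0.5) was tested for 11983 genes that reached 0.5 FPKM in 7 or more mice. The test was limma 3.58.1 with a trend (R 4.3.3), two-sided, with Benjamini-Hochberg adjustment over all of them and a threshold of 0.05. The pseudocount shrinks the fold change of low genes. Paralog ratios were tested over all 6435 assignments of the mice (smallest p 0.000155). Python 3.11.15 was used elsewhere. Gene positions and coding lengths came from GENCODE M21 (GRCm38), and the share of 50-base windows found in other genes' transcripts was counted there. The tests were checked on simulated data.

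The members and gene lists were chosen with earlier results of these data known. All mice are summarised by lowest, median and highest value for members past the threshold and for paralog pairs, other members mostly by their fold change, and at most 5 genes per direction are named from the other lists. Samples were grouped by their labels as 7 AIMD and 8 Vehicle mice, separate animals by their numbering.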

Additional observations from a re-analysis of the deposited data

Results flagged for a closer look

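In 6 of 78 groups of mice examined, the highest or lowest mouse was far from the others by Dixon's criterion, where chance gives about 1 in 20. Vehicle replicate 1 was the highest of 8 for Cox5b (203 FPKM, next 115), Cox6b2 (3.32, next 1.57), Cox7a2l (190, next 131) and the pseudogene Atp5k-ps2 (2.59, next 1.02). Vehicle replicate 8 was the lowest of 8 for Uqcrc2 (99.9 FPKM, next 162). AIMD replicate 2 was the highest of 7 for Cox7b (509 FPKM, next 438). Without Vehicle replicate 1, Cox5b and Cox6b2 no longer passed the threshold, whereas Uqcrc2 passed without Vehicle replicate 8 (limma, adjusted p = 0.00015).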

How the results depend on the processing

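Of the 39 members, 18 passed the threshold, 6 higher and 12 lower, and 8 of the 18 (Uqcr11, Uqcrc2, Cox6a1, Cox7a1, Atp5b, Atp5c1, Atp5j and Atp5k) passed under each of the 28 alternatives. No called member reversed. Testing every gene above 0 left 11 calls, 6 of them lower, and so did the exact rank-sum test. Over all genes, the first called 4216 of 24279 and the second 3890 of 11983. The causes of the lost calls were not tested. Leaving out 1 mouse gave 11 to 22 calls, 6 to 17 of them lower and 5 to 6 higher. The lower calls dropped to 6 without AIMD replicate 1, AIMD replicate 6 or Vehicle replicate 1, to 7 without AIMD replicate 5, AIMD replicate 7 or Vehicle replicate 5, and rose to 17 without Vehicle replicate 8. The calls over all 11983 genes tested moved as well, from 3555 without AIMD replicate 6 to 4643 without Vehicle replicate 8, beside 4320 with all mice. Array weights gave 22 calls, and the number of reads as a covariate 14 (10 lower, 4 higher), where Uqcrc1, Uqcrfs1, Cox5a, Cox6b2 and Cox6c were lost. Over all 11983 genes tested, array weights called 5460 and the number of reads 3043, beside 4320 in the main fit. There the clock-gene score called 5111 and quantile normalization 4436. Among the members, the clock-gene score as a covariate gave 18 calls, and quantile normalization 18 (11 lower, 7 higher), with Cox5a lost (log2 fold change -0.34, limma, adjusted p = 0.128) and Cox7b gained (0.51, adjusted p = 0.0386). Quantile normalization also ended the calls of mt-Cytb and mt-Co1.

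The replicate numbers name different mice, and only 2 of 7 same-numbered pairs deviated together with a correlation over 0.1 (-0.35 to 0.43; 1 of 7 AIMD mice was closest to its own number). With the replicate block, 22 members were called, 16 lower and 6 higher, among them all 18. Of all 11983 genes tested, the block called 4651.

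The log2 difference of the Cox6b2 to Cox6b1 ratio was -0.44 (exact permutation test, p = 0.0844) with a pseudocount of 1, and ranged from -0.77 to -0.52 with 1 mouse left out. The other 5 ratios stayed on their side of the threshold, though the Atp5g1 to Atp5g3 and Atp5g2 to Atp5g3 differences, near 0, changed sign with the pseudocount. Few reads limit Cox6b2, Atp5g2 and Atp5l.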
